A study of Mus musculus with 12 samples.

Results

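The peaks described here are the regions of N6-methyladenosine (m6A) enrichment that the authors assigned to long noncoding RNAs (lncRNAs) in mouse liver. They are the rows of the deposited peak table that carry a gene name and the transcript biotype lncRNA: 513 of 17503 named peaks, in 405 of 10277 genes. The study profiled m6A by RNA immunoprecipitation and sequencing in postnatal liver of C57BL/6 mice, wild type against Mettl3-deficient. The 12 libraries fall into 4 groups of 3 replicates: wild-type antibody-tagged RNA, wild-type input, Mettl3-deficient antibody-tagged RNA and Mettl3-deficient input. All were made from poly(A) RNA, fragmented before precipitation with an anti-m6A antibody, with a stranded library kit. The labels name no age, allele, Cre driver or promoter for the deficiency, so which liver cells lost Mettl3 is not stated.

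METTL3 is the catalytic subunit of the enzyme complex that writes m6A on nascent transcripts, mostly at adenosines followed by cytosine. On mRNA the mark is concentrated in long internal exons, near stop codons and in 3′ UTRs. lncRNAs have no open reading frame of note, are spliced and polyadenylated in many cases, often lie beside or across coding genes, and include nuclear regulators, host transcripts of small nucleolar RNAs (snoRNAs) and transcripts of unknown role.

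Every fold change and false discovery rate (FDR) of a single peak given below is a value of the authors' deposited table, which has 1 value per peak for the comparison of the genotypes and none per mouse. A peak is called here when its deposited FDR is 0.05 or below, and evidence is given as the log10 of the FDR, whose lowest value is -434. Which genotype is the numerator is not stated in the table. Since METTL3 writes m6A, a negative change likely stands for lower enrichment in Mettl3-deficient liver, a reading that rests on the design alone, and the changes are therefore named by sign. The spread between mice is unknown, whether the deposited FDR takes it in is not given, and with no value per library a change in m6A cannot be told apart from one in RNA amount. In whole liver, fewer cells of a type and less RNA per cell cannot be told apart either.

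The sequences show where 8 called lncRNA peaks meet the start of their own gene. They were picked after the values were seen from 26 such windows in which a called, exon-labelled peak with no coding gene at the same place reached the transcribed bases after the RefSeq start. Jpx, Snhg15 and Snhg20 carry positive changes there. Oip5os1, 2010320M18Rik and 9030616G12Rik carry negative ones. Gm13421 and Gm19619 are the 2 windows with GGACT on the transcript's strand. Sequences are from RefSeq, GRCm38.p6 (the mm10 build), 5′ to 3′ on the gene's strand, with the 50 bases transcribed after the annotated start in capitals. The peaks cover all 50 of those bases in each but Oip5os1, where they cover 19.
Jpx, chrX:103493508-103493607, plus strand: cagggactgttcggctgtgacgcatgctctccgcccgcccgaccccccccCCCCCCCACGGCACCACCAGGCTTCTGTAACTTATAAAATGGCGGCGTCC
Snhg15, chr11:6528711-6528810, minus strand: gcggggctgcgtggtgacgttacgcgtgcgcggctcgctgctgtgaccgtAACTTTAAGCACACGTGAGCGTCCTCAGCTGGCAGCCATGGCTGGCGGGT
Snhg20, chr11:117076733-117076832, plus strand: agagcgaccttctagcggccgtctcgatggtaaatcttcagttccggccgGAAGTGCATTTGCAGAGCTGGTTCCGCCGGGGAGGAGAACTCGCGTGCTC
Oip5os1, chr2:119594246-119594345, plus strand: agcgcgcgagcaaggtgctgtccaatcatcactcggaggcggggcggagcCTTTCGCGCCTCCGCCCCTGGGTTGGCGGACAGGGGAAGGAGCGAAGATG
2010320M18Rik, chr8:70776812-70776911, plus strand: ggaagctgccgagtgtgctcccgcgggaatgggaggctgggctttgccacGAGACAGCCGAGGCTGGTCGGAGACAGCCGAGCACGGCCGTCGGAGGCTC
9030616G12Rik, chr10:128971147-128971246, plus strand: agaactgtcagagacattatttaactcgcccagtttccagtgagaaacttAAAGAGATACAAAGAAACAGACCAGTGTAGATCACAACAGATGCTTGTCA
Gm13421, chr2:27540376-27540475, plus strand: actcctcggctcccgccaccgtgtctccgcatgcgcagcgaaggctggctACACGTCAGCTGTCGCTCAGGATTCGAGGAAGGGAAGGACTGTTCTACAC
Gm19619, chr5:91283027-91283126, minus strand: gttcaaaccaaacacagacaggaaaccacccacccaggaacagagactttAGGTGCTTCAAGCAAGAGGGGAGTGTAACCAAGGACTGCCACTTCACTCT

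The 50 transcribed bases of the 26 windows were searched for 4 forms of the m6A motif, each counted on its own. Gm44507 and Trmt61b each enter with 2 windows under the same peak, so the 26 windows are not separate peaks. GGACT stood on the transcript's strand in 2 of 26, against 5.76% of the 32851 stretches of the same length and place in the RefSeq table. GGACA stood in 1 (5.4% of all), GGACC in 2 (5.13%) and AAACT in 2 (3.61%). On either strand GGACT was found in 5 of 26, against 10.4% of all. The window ends 50 bases into the transcript and most of each peak lies beyond it, so a window without these letters says nothing of the rest of the peak.

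A smaller share of lncRNA peaks than of all listed peaks was called, and those called were mostly negative. Of the 513, 260 (50.7%) were called, against a background of 76.2% over all 17503 listed peaks and 77.1% of the 14135 peaks on protein-coding transcripts. Negative changes made up 175 of the 260 (67.3%, 95% Wilson interval 61.4 to 72.7), compared with 53.3% (52.4 to 54.1) of all called peaks. As a share of members, 34.1% were called with a negative change, below the 40.6% of the whole table, and 16.6% with a positive change, against 35.6%. The shortfall in calls was therefore larger on the positive side. Intervals cover counting error over peaks only, and no test was made between the classes.

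Called lncRNA peaks had a median size of change of 1.22 on the log2 scale, above the 0.97 of all called peaks. The called negative values centred on -1.36 (median, log2 scale), beside -1.34 over all listed peaks. The called positive values centred on 0.90, beside 0.73. A change of at least 1 in size was seen in 131 of 175 negative calls (74.9%) and in 32 of 85 positive calls (37.6%). Over all listed peaks these shares were 71.3% and 21.9%, so the sizes differed more on the positive side. The whole range ran from -5.48 in Gm20634 to 5.67 in 4930426L09Rik. The median of all 513 was -0.59 (quartiles -1.45 and 1.11), beside 0.34 over all listed peaks. Negative and positive lncRNA changes form separate groups, with only 1 peak within 0.25 of 0. The whole table has this gap too, with 149 of 17503 peaks so near 0. The median was 0.49 over the 313 peaks that overlap no coding gene, so no direction is read from it.

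The peaks that were not called did not have smaller changes. The 253 of them had a median size of 1.58, compared with 1.22 for called lncRNA peaks, and 96 of them reached a size of 2, against 46 of the called. The order was the same over all listed peaks, with a median size of 1.09 for the uncalled and 0.97 for the called. Of the uncalled lncRNA peaks, 155 were positive and 98 negative, beside 2842 and 1316 over all listed peaks. Evidence was also weaker among the called, with a median log10 FDR of -4.39 against -7.47 over all called peaks. The plot of change against evidence shows these broad, weakly supported values at the bottom and a negative column at the top.

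**Figure D1:**
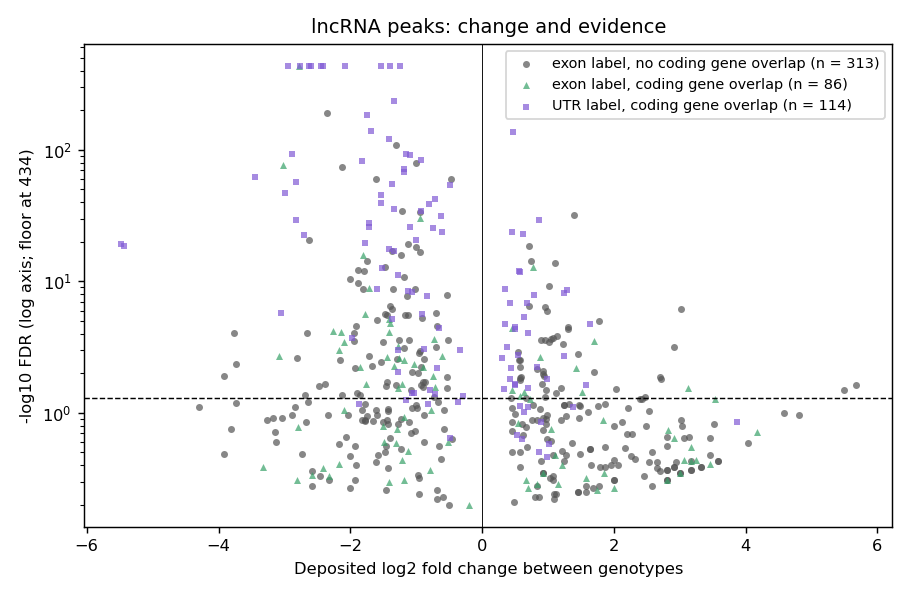
Each point is 1 of the 513 lncRNA peaks, with the deposited log2 fold change between genotypes on the x axis and the size of the log10 FDR on a log y axis. The dashed line marks an FDR of 0.05. The 11 peaks at the floor of 434 are all negative and overlap a coding gene.

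Counted by gene, 145 lncRNA genes had called peaks of negative sign only, 69 of positive sign only, 5 of both signs, and 186 had none. Taking the leading peak of each gene, the one of smallest FDR, 148 of 405 were called negative (36.5%) and 71 positive (17.5%). Over all 10277 genes 81.1% of leading peaks were called, 47.6% negative and 33.6% positive. The negative share of called leading peaks was 67.6% for lncRNAs and 58.6% for all genes, a smaller gap than that over single peaks. Most genes, 331 of 405, had 1 peak, 55 had 2 and 19 had at least 3, with a maximum of 6. Names were mostly provisional. The 214 genes with a Gm number and 129 with a Rik name stood beside 62 with another symbol. The sign differed with the kind of name: 94 of 131 called Gm peaks and 60 of 81 called Rik peaks were negative. Of called peaks of genes with another symbol, 21 of 48 were (43.8%, 30.7 to 57.7), beside 53.3% of all called peaks. This last kind includes the small RNA host genes described next, with 13 of 14 called peaks positive.

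The snoRNA and small RNA host genes carried positive changes. These genes keep snoRNAs or miRNAs in their introns or exons, and many have spliced products that are degraded quickly. Of the 27 host genes listed, 9 had an lncRNA peak, 17 had no row, and Gas5 had rows of another biotype only. The 9 genes held 15 peaks at 13 separate places. Of the 15, 14 were called, 13 positive and 1 negative, against 35.6% and 40.6% of all listed peaks. By gene, 8 leading peaks were called positive, 0 negative and 1 was not called, where 33.6% of all leading peaks were called positive. This list too was put together with earlier results of these data known, so its direction is a description. None of the 15 overlapped a coding gene. The median of the 9 leading peaks was 0.99, beside -0.52 over the leading peaks of all genes.

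Among these hosts, Snhg1 had 1 peak in exon 9 of 10, with a change of 1.01 and a log10 FDR of -3.48 in the authors' deposited table. Snhg12 had 2 peaks, 0.91 in exon 3 of 4 and 1.30 in the last exon. Snhg15 likewise had 2, 1.23 at the start printed above and 0.99 in exon 2 of 3. Both peaks of Snhg12 and of Snhg15 were called. Snhg8 stood at 1.13 in its last exon, and Snhg20 at 1.01 (log10 FDR -9.17), a ratio of 2.01, over its start. Epb41l4aos, which lies head to head with Epb41l4a, stood at 0.74 (log10 FDR -14.2). Dancr, a transcript known for holding back differentiation, is listed 3 times over 1 place at 0.58, 0.58 and 0.59. Snhg5 was the host not called, at 0.50. Snhg17 held the negative peak: its values were 0.71, -0.95 and 0.93 at 693, 1291 and 2814 bp from the start of the transcript, so the negative peak lies between the positive ones.

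Gas5, a growth-arrest transcript with many snoRNAs in its introns, falls outside the rule because its rows carry the biotype retained intron. Its 2 rows were positive too, at 0.76 (log10 FDR -32.7) and 1.70 (-16.0). Zfas1, another snoRNA host that was not on the list and was added after its value was seen, stood at 1.11 (-13.8). No lncRNA peak overlapped a miRNA hairpin of RefSeq (0 of 513).

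The liver and stress lncRNAs went mostly the other way. Of 40 names listed, 13 had an lncRNA peak, with 8 leading peaks called negative, 1 called positive and 4 not called. The 40 include Norad and Pint, further names of 2900097C17Rik and Lncpint, which are listed too. Among the leading peaks of all genes 47.6% were called negative and 33.6% positive. The 13 had a median of -1.17, beside -0.52 for all genes. The list was put together with earlier results of these data known, so its direction is a description.

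The negative members included transcripts with known roles. Oip5os1, the conserved transcript also called Cyrano that triggers decay of miR-7, stood at -1.23 (log10 FDR -15.9) over 5800 bp from its first exon. 2900097C17Rik, the mouse Norad, which binds PUMILIO proteins, stood at -1.36 (-17.0) in 990 bp of its single exon, a ratio of 0.39. Lncbate1, described in brown fat, stood at -1.41, but its peak spans 31025 bp that overlap Zfhx3. Both Oip5os1 and 2900097C17Rik lie clear of coding genes.

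AI506816 had the strongest change of the list, -3.02 (log10 FDR -77.1) in 300 bp of its last exon, where RefSeq also places the predicted coding gene Gm42226 on the same strand. 0610005C13Rik stood at -1.0 (-78.9) in 329 bp of its last exon, a ratio of 0.5. The others called were 9030616G12Rik at -1.19, 2610035D17Rik at -1.17 and 5033406O09Rik at -1.06.

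Lncpint, a p53-induced transcript, was the positive member: its wide peak of 23883 bp stood at 0.90 and was called, and an overlapping peak of 150 bp stood at 0.93 and was not. Of the members not called, Tug1, a widely expressed regulator of chromatin and growth, stood at -1.16 in a 120 bp peak. That peak overlaps Morc2a on the opposite strand, whose own row over the place was called at -0.60. Trp53cor1, another p53 target, stood at 0.87, Fendrr, a neighbour of Foxf1, at 1.37, and Gm16551 at -1.28. E330011O21Rik has a row of another biotype only, at -1.28.

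**Figure D2:**
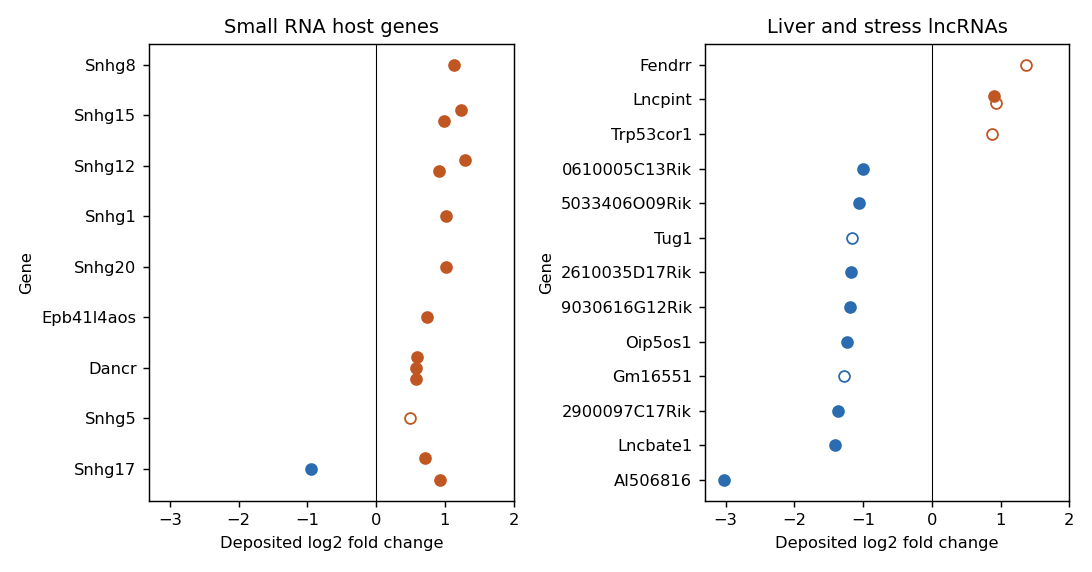
Deposited log2 fold change of every lncRNA peak of the host genes (left, 15 peaks) and of the liver and stress lncRNAs (right, 14 peaks). Filled points were called, open points were not; blue is negative and orange positive. On the left 13 of 14 called peaks are positive, and on the right 8 of 9 are negative.

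The nuclear and chromatin lncRNAs were almost unlisted. Of 14, only Jpx and Ftx, both neighbours and regulators of Xist on the X chromosome, had a row. Malat1, Neat1, Xist, H19, Meg3 and the 7 others had none, which says nothing of their m6A since the filters of the table are not given. Jpx had 3 peaks: 1.30 at its start was called, and 0.84 at the start and -1.02 in the last exon were not. Ftx stood at -1.39 in exon 11 of 11 and was not called. The X chromosome held 7 lncRNA peaks in all, of which 2 were called, both positive. Over all listed peaks 76.2% were called and 35.6% were called positive. With 7 peaks, no direction is read for the chromosome.

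Transcripts named for lying opposite a coding gene showed both signs. The 20 genes with such names held 27 peaks, 15 of them called, 9 negative and 6 positive. Only 11 of the 27 overlapped no coding gene, and 5 of these were called, 4 negative and 1 positive. The other calls, Ctcflos at -2.14 among them, lay on coding genes. The leading peaks of the 20 genes were called negative in 7, called positive in 5 and not called in 8. Among all leading peaks 81.1% were called, 47.6% negative and 33.6% positive. Besides Oip5os1, the negative ones were Stamos at -1.91, Map2k3os at -1.48 (log10 FDR -12.9), Tmem51os1 at -1.28, Prox2os at -1.07, Brip1os at -0.94 (-33.8) and Ctcflos at -2.14.

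The positive ones were Tbx3os1 at 1.58, Epb41l4aos at 0.74, Uckl1os at 0.69, Alkbh3os1 at 0.50 and Sardhos at 0.47. Sardhos had strong evidence for a small change (log10 FDR -136), and a Sardh row over the same place stood at 0.46. Large values without a call were seen in this group as well, such as 4.81 in Zmiz1os1, 3.17 in Dgkeos and -2.32 in Rapgef4os1.

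Many lncRNA peaks lie on coding genes. In all, 200 of the 513 overlapped the RefSeq span of a protein-coding gene, and the other 313 did not. Every one of the 114 peaks that the authors labelled as a UTR was among the 200, since an lncRNA has no UTR and the label comes from the coding gene. Of the 399 exon-labelled peaks, 357 were labelled with an exon of the lncRNA itself and 42 with an exon of another gene. Where both strands could be matched, 58 overlaps were on opposite strands and 19 on the same strand, while 118 had no strand for the lncRNA and 5 none for the coding gene. The kit is stranded, but whether reads were counted by strand is not given, so reads of the lncRNA and of the coding gene cannot be told apart.

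The calls were concentrated in the overlapping peaks. With a coding overlap 137 of 200 (68.5%) were called, 96 negative and 41 positive. Without one 123 of 313 (39.3%) were called, 79 negative and 44 positive, a negative share of 64.2% (55.4 to 72.1). The share called thus differed, and the negative share of the calls stayed within the interval of the full set. Peaks with an overlap were also wider, with a median of 804 bp compared with 330 bp. Peaks labelled 3′ UTR had the strongest evidence: 78 of 89 were called, 57 negative, with a median log10 FDR of -21.6 among the called. The label has a high share in the whole table too: of all 3′ UTR peaks 81.0% were called, 60.4% of the calls were negative, and the median log10 FDR of the called was -9.32.

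The lncRNA peaks with the strongest evidence lay on coding genes. All 11 peaks at the floor, in 9 genes, overlapped a coding gene. Over all listed peaks 485 of 17503 stood at the floor. They were 1700034H15Rik at -2.76 on Slc30a1 (a zinc exporter), Wbscr25 at -2.45 on Cldn3 (a tight junction claudin), 4732471J01Rik at -2.08 on Ceacam1 (a cell adhesion receptor) and E230013L22Rik at -2.95 on Rab20 (a small GTPase). Gm11175 had 2 at -2.78 and -2.59 on Jund (an AP-1 factor), and Gm20412 had 2 at -1.54 and -1.39 on Tgm2 (a transglutaminase). Gm20688 stood at -1.25 on Apol7a. Gm47544 at -2.42 lay on Apoa5, an apolipoprotein that regulates plasma triglyceride, and Apoa5's own row at the place stood at -1.82. D030055H07Rik at -2.62 lay on Glyctk, a glycerate kinase, whose own rows stood at -2.65 and -2.17.

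Peaks listed under more than 1 gene had mostly the same sign. Of 513 lncRNA rows, 116 overlapped another row of the table and 43 a row of another gene. The 24 that overlapped a row of a protein-coding gene formed 26 pairs, and 23 pairs shared the sign. Such pairs cover the same reads in part and are not separate observations.

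Some strongly changed peaks had no coding gene at the same place. Gm17753 stood at -2.36 (log10 FDR -190) over 9566 bp from its start, a ratio of 0.195. BC049987 stood at -2.13 (-74.6) in 594 bp of a single exon. Gm36419 stood at -1.61 (-59.6) over 20264 bp, and 2010320M18Rik at -1.22 (-34.4) in 861 bp. AW112010, an interferon-induced transcript known to be translated in macrophages, had a small change of -0.47 with strong evidence (-59.8) over 8197 bp. These were chosen after their values were seen, from the strongest evidence.

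Of the 30 lncRNA peaks with the strongest evidence, 25 overlapped a coding gene and 29 were negative, the exception being Sardhos. The signs of the strongest peaks of the whole table are not given here, so this count is not read as particular to lncRNAs.

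The most negative leading peaks were those of Gm20634 at -5.48 and Gm20633 at -3.45 (log10 FDR -62.3), which share the histone locus of H3c14 and H2ac18 and overlap each other. Histone mRNAs of this kind mostly end without a poly(A) tail, and the libraries were made from poly(A) RNA. Next came B230354K17Rik at -3.91, 9330102E08Rik at -3.77 and E130317F20Rik at -3.74, all clear of coding genes and with log10 FDR values of -1.90, -4.05 and -2.34. The remaining members of the 10 most negative were AI506816, Gm15638 at -2.99, E230013L22Rik, 9630013K17Rik at -2.89 on Cox10 and Gm20457 at -2.82. Gm20457 lies on Mtmr10, whose 2 own rows there stood at -2.90 and -2.52.

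The most positive leading peaks had weaker evidence and mostly lay clear of coding genes. 4930426L09Rik reached 5.67 at a log10 FDR of -1.62, and an overlapping row of it 5.49. Gm49768 followed at 3.12, on Uggt2. 5031425F14Rik stood at 3.02 with the best evidence of the group (-6.20), then D5Ertd605e at 2.91, AI839979 at 2.72, 6030443J06Rik at 2.70, Gm9828 at 2.47 and B130024G19Rik at 2.03. Morrbid, which controls the death gene Bcl2l11 in myeloid cells, stood at 1.78 (-4.97) over 30748 bp, and Gm44507 at 1.70.

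The sign of the called peaks varied with exon position. Of 164 peaks in last exons, 58 were called, 45 of them negative (77.6%, 65.3 to 86.4), with a median change of -0.95 over all 164. In first exons 36 of 55 called peaks were negative, and in single-exon transcripts 16 of 25. Internal exons had 11 negative and 13 positive among 24 called, with a median over 57 peaks of 0.91. Among called peaks without a coding overlap, 35 of 46 were negative in last exons and 28 of 42 in first exons. In internal exons 7 of 17 were, and in single exons 9 of 18. The share of lncRNA peaks called was 35.4% in last, 50.5% in first, 42.1% in internal and 36.2% in single exons. For all listed peaks it was 55.4%, 54.7%, 71.4% and 47.0% in the same order. Over all listed peaks the negative share was 84.1% in last exons, 60.1% in first exons, 57.4% in internal exons and 39.9% in single exons, so last exons were the most negative class in both. On protein-coding transcripts it was 90.3% in last exons outside UTR labels. 3′ UTR labels had 57 negative of 78 called (73.1%, 62.3 to 81.7), beside 60.4% over all listed peaks. 5′ UTR labels had 10 of 20 (Wilson interval 29.9 to 70.1), beside 30.1% over all listed peaks, a value just inside that interval.

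**Figure D3:**
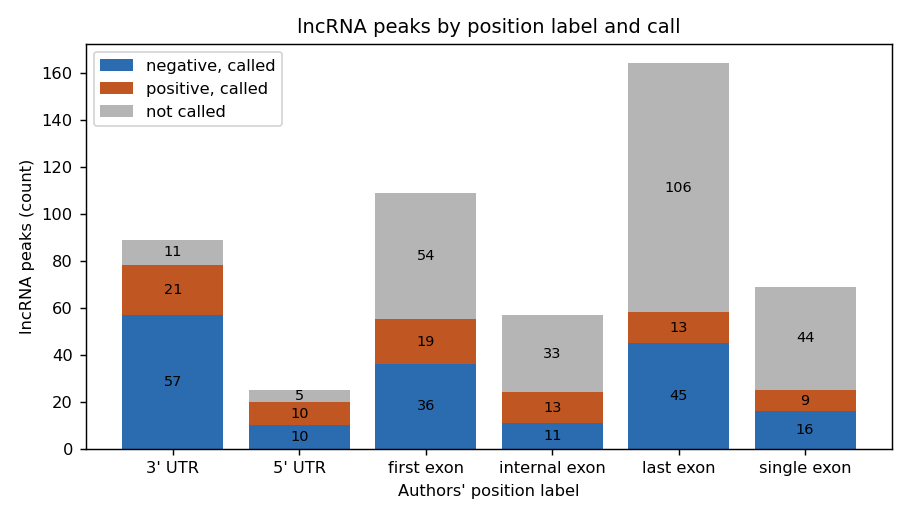
Number of lncRNA peaks (y axis) by the authors' position label (x axis), split into called negative (blue), called positive (orange) and not called (grey). Last exons hold 45 negative against 13 positive calls, internal exons 11 against 13, and most exon-labelled peaks in last and single exons were not called.

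At transcript starts the called lncRNA and protein-coding peaks differed in their share of negative changes. A peak covers the start when the deposited distance is 0, as for 208 of the 513 lncRNA peaks (40.5%), compared with 25.6% of all listed peaks. Of 145 called at lncRNA starts, 96 were negative (66.2%, 58.2 to 73.4), whereas on protein-coding transcripts 644 of 2177 were (29.6%, 27.7 to 31.5). Away from the start the shares lay closer, 79 of 115 (68.7%, 59.7 to 76.5) and 61.9% (60.9 to 62.9).

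Much of the start class overlapped coding genes: 141 of the 208, with 72 of 106 called peaks negative. Without such overlap, 24 of 39 were negative (61.5%, 45.9 to 75.1). With the width held to 1000 bp as well, 8 of 15 were (53.3%, 30.1 to 75.2), against 175 of 827 (21.2%, 18.5 to 24.1) of protein-coding start peaks of that width. Each interval for lncRNAs thus lay above that of protein-coding peaks, on few peaks in the narrowest set. With uncalled peaks included, the median change was -0.70 at all 208 lncRNA starts and 0.64 at protein-coding starts. Without coding overlap it was 0.44 for lncRNAs. With the width limit as well it was 0.835, beside 0.73 for protein-coding start peaks of that width. The difference is therefore described for called peaks only.

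The share called followed the width. Widths run along the genome and include introns. The median lncRNA peak was 420 bp wide (quartiles 208 and 1847), beside 480 bp over all listed peaks. Of 123 peaks up to 200 bp, 16 (13%) were called, against 46.2% of all listed peaks of that width. From 201 to 500 bp the share was 43.9%, from 501 to 1000 bp 68.1%, from 1001 to 5000 bp 78.7% and over 5000 bp 77.0%. The values for all listed peaks were 77.2%, 87.8%, 88.1% and 85.1%. lncRNA peaks were below the table in every class, by the widest margin in the narrow ones. Among 86 narrow peaks without a coding overlap, 10 were called.

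Negative calls outnumbered positive ones most in the class of 501 to 1000 bp, with 39 of 49 (79.6%, 66.4 to 88.5), and least in peaks up to 200 bp, with 9 of 16 (56.2%, 33.2 to 76.9). The same 2 classes were the highest and lowest over all listed peaks, at 70.8% and 36.5%. The narrowest peaks were Gm44386 at 58 bp with a change of 1.46, Gm37336 at 59 bp with -1.23 and Gm39469 at 59 bp with 1.58, none called. The widest were A430090L17Rik at 187778 bp with -1.52, on Arl15, and C78197 at 94628 bp with 0.68, on Stx8, both called, and A530072M11Rik at 77863 bp with 1.48, not called. Peaks of such width span whole genes, and where in them the enrichment lies is not given.

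**Figure D4:**
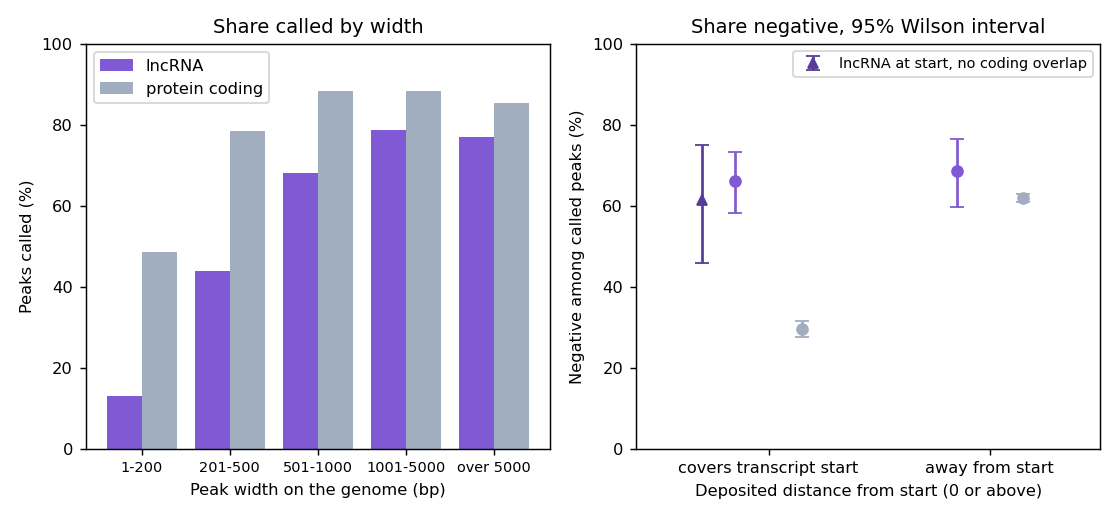
Left, percentage of peaks called by width on the genome, for lncRNA and protein-coding peaks; the lncRNA bars rise from 13% up to 200 bp to 78.7% at 1001 to 5000 bp. Right, percentage negative among called peaks with 95% Wilson intervals, at and away from the transcript start, in the same colours: at starts lncRNA peaks stand at 66.2%, or 61.5% without coding overlap (triangle), and protein-coding peaks at 29.6%.

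Genes with several peaks show how the change varied between peaks of 1 gene, whose assigned transcripts and starts can differ. Gm15638 had 6 called peaks: -1.39 at its start, -1.74 in its last exon, then 1.64, -2.99, -1.97 and -2.71 in places labelled as a 3′ UTR, all 4 on Plcxd2 on the other strand. The positive value came from a peak of 91 bp. Ctcflos changed from 1.52 in a first exon through -0.72 in an internal exon to -3.08 and -2.14 in last exons that overlap a coding gene. B630019A10Rik went the same way along the genome without a coding gene there. It stood at 1.40 over a start (log10 FDR -32.2), then at -1.48 and -1.12 (-19.1). The negative peaks lie 22167 and 28165 bp from another start. The peak at -1.48 carries an exon label of a different gene from that of the peaks on either side.

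9030622O22Rik held a called -1.80 at 241 bp from a start and a called 1.45 in a peak of 28938 bp over another start, with an uncalled -0.58 in its last exon. In 4 of the 5 genes, Snhg17 included, the peak nearest an assigned start was positive, in 9030622O22Rik only through the wide peak. In Gm15638 the nearest peak was negative, and a called row of Phldb2 that overlaps it stood at 0.8.

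**Figure D5:**
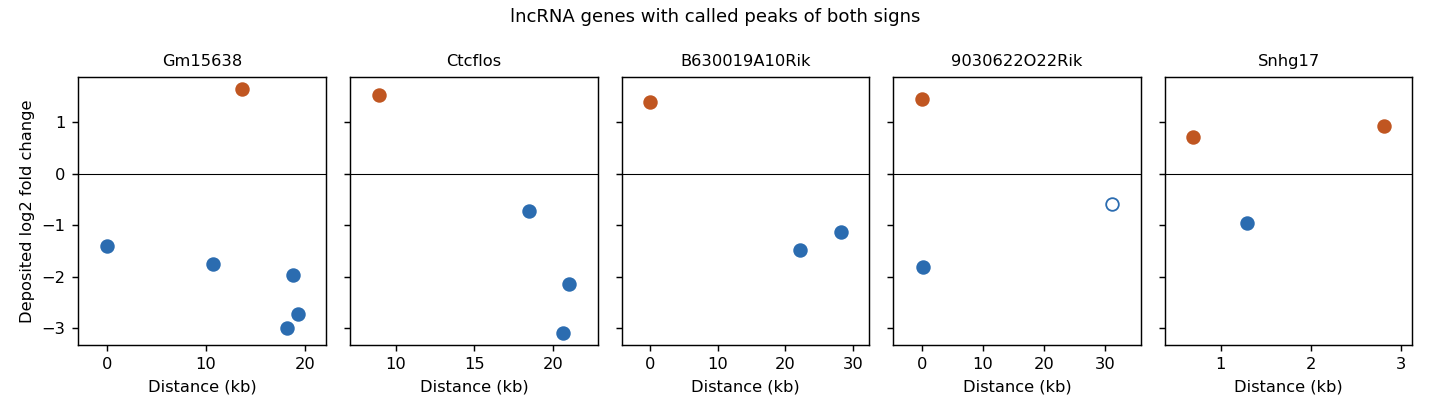
Deposited log2 fold change (y axis) of each peak of the 5 lncRNA genes with called peaks of both signs, against the distance in kb from the start of the transcript that the authors assigned (x axis, its own range for each gene). Filled points were called, open points were not. The peaks farthest from the start are negative in Gm15638, Ctcflos and B630019A10Rik, and positive in Snhg17.

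Of the 19 genes with at least 3 peaks, 11 had values of 1 sign and 8 of both, counting uncalled peaks. A930038B10Rik had 6 peaks from -2.64 to -0.94, of which the 1 at -0.94 was called. 4732471J01Rik had 4 called negative peaks, -2.08, -1.33, -0.63 and -3.05, all on Ceacam1 or Ceacam2. 1500002C15Rik had 4 positive values from 0.81 to 2.81, none called. Gm26672, in the protocadherin gamma cluster, had 6 positive values from 2.81 to 3.46, none called. Among those of both signs, 1700034P13Rik had 2 called peaks at -1.42 and -1.45 that overlap each other, beside an uncalled 0.98.

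The class itself was checked against RefSeq. Of the 405 names, 274 matched, 261 of them as lncRNA, 11 as protein-coding and 2 as transcribed pseudogenes. Those classed as coding include Ifi30, a lysosomal thiol reductase, with a change of 0.77 (log10 FDR -12.9), and Spata5l1 at -1.26 and Anxa13, an annexin, at -1.78. Of 352 peaks whose gene has a RefSeq span, 323 (91.8%) overlapped it. The tissue label was checked by whether marker genes had any listed peak: 7 of 8 hepatocyte, 4 of 5 endothelial, 4 of 4 stellate, 2 of 4 macrophage, 1 of 4 cholangiocyte and 2 of 3 leukocyte genes did. The table had no row of Mettl3 or Mettl14 under those names (0 rows), so the deficiency could not be checked in it.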

How the data were processed

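Antibody-tagged and input RNA of 3 wild-type and 3 Mettl3-deficient livers was measured. The submitters' processing notes name HISAT2 2.1.0 and the build mm10. Peak calling, replicate handling and the genotype test: not given in the sources used here. The deposited table, per its header, has 1 row per peak with a log2 fold change and a log10 FDR, both treated as scores, a p-value rounded to 2 decimals, and other columns (position, label, distance). No values per library were used, so depth is unknown and the planned edgeR or limma fit was not run. Of 17692 rows, 189 lacked a gene name (67 lncRNA) and enter only as an alternative. In these the last cells were read in another order, which put the p-values and FDR closer to the other rows over 90 rows checked (median difference 0.0037 against 0.1639). Names, strands and coding spans came from RefSeq GRCm38.p6. Shares carry 95% Wilson intervals. Counting steps were tested on simulated data. The members, lists and naming rule were chosen with earlier results of these data known. The rule took all list members with a peak, the 10 most negative and 10 most positive called leading peaks, up to 12 genes with 3 or more peaks or both signs, and the 3 narrowest and widest peaks. Other genes were named after their values were seen. Python 3.11.15, numpy 2.4.6, pandas 2.3.3 and scipy 1.17.1 were used.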

Additional observations from a re-analysis of the deposited data

How the results depend on the processing

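The negative share of called lncRNA peaks stayed between 63.7% and 72.1% under every alternative run except that of a change of at least 1 in size, where it was 80.4%. The count of called peaks fell from 260 to 204 at an FDR of 0.01, to 163 with the size limit, to 133 at widths up to 1000 bp, to 168 for genes that RefSeq holds as lncRNA, to 165 without same-strand coding overlap, to 123 without any coding overlap and to 143 for peaks labelled with the lncRNA's own exon. All but the first are smaller by over 1.5 times. The count of negative calls, 175, fell in the same order to 147, 131, 88, 107, 106, 79 and 96. One leading peak per gene gave 148 of 219, merged rows 161 of 240, and the set with the unnamed rows included 195 of 298. The median of -0.59 went to -0.93 relative to the table's median of 0.34 and to -1.0 over called peaks. It turned to 0.42 without same-strand coding overlap, 0.49 without any and 0.45 for own exons. Relative to the table's median, 1 called lncRNA peak changed sign. Of 74 genes named by the rule, 55 had a called leading peak, and 11 lost the call at an FDR of 0.01: 4930426L09Rik, 6030443J06Rik, AI839979, B130024G19Rik, B230354K17Rik, Dancr, Gm49768, Gm9828, Prox2os, Tbx3os1 and Uckl1os. The alternatives on coding overlap on either strand, merged rows and own exons were chosen after seeing the data. No paired analysis was possible because the table holds 1 value per peak and none per library, so the fit of antibody-tagged against input RNA, with or without a replicate block, was not run. Leaving out a replicate was not possible for the same reason.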

Other observations

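The rows without a gene name held 67 further lncRNA peaks. Of these, 38 passed an FDR of 0.05, 20 of them negative and 18 positive in the authors' deposited table, and their median was 0.56. They belong to no named transcript and enter none of the counts by gene.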
